A study of Mus musculus with 4 samples.

Results

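The matrix metalloproteinases (MMP), the disintegrin metalloproteinases (ADAM and ADAMTS) and the tissue inhibitors of metalloproteinases (TIMP) were examined in endothelial cells sorted from mouse retina, with and without targeting of Zeb1. The genes were taken by name from the deposited table: protein-coding rows whose symbol begins with Mmp, Adam or Timp and a number, or with Adamts. This gave 83 of 54446 rows, made up of 22 Mmp, 33 Adam, 19 Adamts, 5 Adamtsl and 4 Timp genes. The rule reads names only, although the families were picked with earlier results of these data known. The Adamtsl genes, which share the name and the ancillary domains of the ADAMTS proteins, encode proteins without the protease domain.

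RNA was sequenced from 2 Zeb1-CKO and 2 control libraries. Each was made from 100 endothelial cells of C57BL/6 mouse retina, sorted at postnatal day 16. The titles call the Zeb1 group a conditional knockout (CKO) and the genotype field calls it a knockdown, while the other group is labelled control. The sources used here do not name the promoter that drives recombination, the alleles of the controls or how many animals stand behind a library. P-values therefore rest on how far these libraries differ within a genotype, and that difference may be technical.

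Metalloproteinases of these families hold a zinc ion at the active site and are made as inactive precursors, which other proteases, often furin-type convertases, cut to activate. Secreted MMPs degrade matrix around the cell, membrane-type MMPs act at the cell surface, ADAMs cut the outer parts of membrane proteins, and ADAMTS enzymes cut proteoglycans and other matrix proteins. TIMPs bind the active sites and block them. In growing vessels this balance shapes the basement membrane and the release of growth factors and receptors.

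The values are FPKM (fragments scaled by transcript length and library size), which are per length and so allow levels to be compared between genes. Estimated depths, from the steps between low values, were 21.9 and 16.7 M fragments in Zeb1-CKO libraries 1 and 2, against 20.6 and 11.2 M in control libraries 1 and 2. Zeb1 itself was at 8.66 and 7.07 FPKM in Zeb1-CKO libraries, against 10.7 and 11.1 FPKM in controls. Its log2 fold change was -0.43, and it did not pass the test described below (limma's adjusted p = 0.235). A gene-level value does not show whether the remaining reads come from the deleted exons. The endothelial label was borne out by Cldn5, the main endothelial claudin, at 3133 and 3500 FPKM in Zeb1-CKO libraries and 2692 and 3428 FPKM in controls. RNA of vessel-wall cells was also present. Rgs5, a pericyte marker, was at 1201 and 1262 FPKM in Zeb1-CKO libraries, against 1673 and 1348 FPKM in controls.

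Of the 83 genes, 29 averaged 1 FPKM or more across the libraries and entered the test, limma on log2(FPKM + 1) over 13651 genes with Benjamini-Hochberg adjustment. None of the 29 passed an adjusted p of 0.05 in either direction, where 3.13% of all tested genes passed (2.23% higher and 0.901% lower). At an unadjusted p under 0.05, 10 were lower and 2 higher in Zeb1-CKO libraries, or 34.5% and 6.90% of the 29, against 7.35% and 10.5% of all tested genes (17.9% in either direction). Zeb1-CKO and control libraries were fully separate for 13 genes with lower values in Zeb1-CKO and for 5 with higher values, or 44.8% and 17.2%, against 22.3% and 27.1% of all tested genes (49.4% in either direction). A log2 fold change below 0 was found for 20 of the 29, and for 47.2% of all tested genes. The median log2 fold change of the 29 was -0.18, and that of all tested genes was 0.02. With 1 FPKM added before the logarithm, the fold changes of low genes come out too small. No gene passed the filter through a single genotype, since the lowest value of any of the 29 in any library was 0.975 FPKM, in Adam22.

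**Figure D1:**
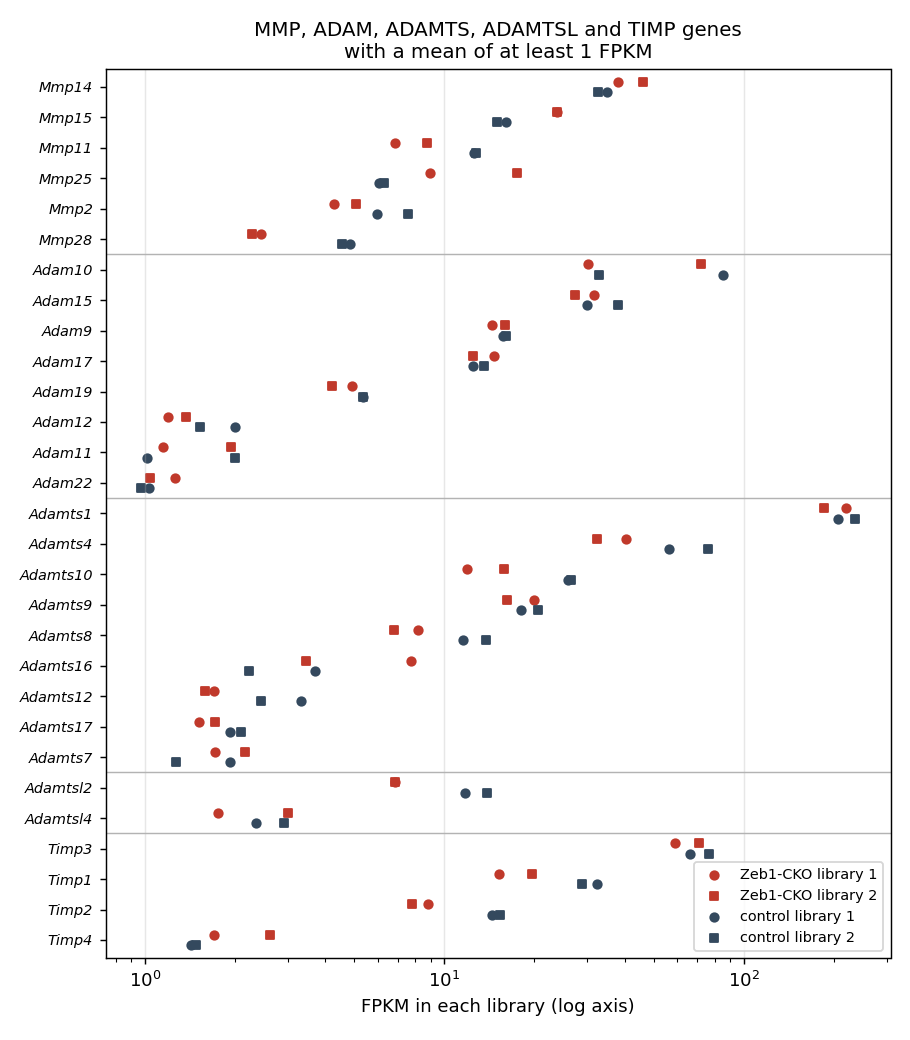
FPKM in each of the 4 libraries on a log axis for the 29 tested genes, by family, with Zeb1-CKO points (red) above control points (dark). The levels span from about 1 FPKM (Adam22) to over 200 FPKM (Adamts1), and Timp1, Timp2, Mmp28, Adamtsl2 and Adamts10 show separate pairs of points while Adam10 is scattered within both genotypes.

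Among the tested MMP genes, those of the cell surface and the secreted ones stood on opposite sides. Of the 6 tested Mmp genes, the 3 membrane-type ones had higher values in both Zeb1-CKO libraries and the 3 secreted ones had lower values in both, although none passed the adjusted threshold. Such separation was found for 27.1% of all tested genes in the higher and 22.3% in the lower direction. Of the genes below the filter, the 3 membrane-type ones and 11 of the 12 secreted ones overlapped, and Mmp13 was lower in Zeb1-CKO libraries at 0.162 FPKM or less. This division into classes is the textbook one, but it was applied after the values were seen, and no test of it is given. Mmp14 encodes MT1-MMP, a transmembrane protease that cuts collagen and activates pro-MMP2. It was the most abundant MMP, at 38.0 and 46.2 FPKM in Zeb1-CKO libraries against 34.8 and 32.7 FPKM in controls. Its log2 fold change was 0.30 (SE 0.15), with limma's adjusted p at 0.362. The groups did not overlap, but the gap between the nearest libraries was smaller than the one between the Zeb1-CKO libraries.

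Mmp15, which encodes the related transmembrane protease MT2-MMP (chromosome 8, 95352268 to 95375080), was at 23.7 FPKM in both Zeb1-CKO libraries, against 16.1 and 15.03 FPKM in controls. Both Zeb1-CKO libraries lay well above both controls. The log2 fold change was 0.58 (SE 0.13, 95% interval 0.26 to 0.90), and limma's adjusted p was 0.0865. Mmp25 encodes a GPI-anchored protease known from neutrophils, and it lies on chromosome 17 (23628311 to 23645277). It was at 8.94 and 17.5 FPKM in Zeb1-CKO libraries, against 6.06 and 6.27 FPKM in controls. The controls agreed closely and Zeb1-CKO library 2 was far above library 1. The log2 fold change of 0.92 (SE 0.30, limma's adjusted p = 0.191) was 0.47 without Zeb1-CKO library 2 and 1.37 without library 1.

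Among the secreted enzymes, Mmp28, which encodes epilysin, was at 2.44 and 2.27 FPKM in Zeb1-CKO libraries, against 4.83 and 4.57 FPKM in controls. These pairs were tight and well apart, with a log2 fold change of -0.76 (SE 0.15) and limma's adjusted p at 0.0670. Mmp11 encodes stromelysin-3, which furin-type convertases activate inside the cell. It was at 6.83 and 8.78 FPKM in Zeb1-CKO libraries and 12.6 and 12.8 FPKM in controls (log2 fold change -0.64, SE 0.16, limma's adjusted p = 0.114). Mmp2, the gene of gelatinase A, which cuts collagen IV and denatured collagen, was at 4.28 and 5.07 FPKM in Zeb1-CKO libraries and 5.95 and 7.54 FPKM in controls (limma's adjusted p = 0.271). In each of these 3 genes both Zeb1-CKO libraries were below both controls. Mmp28 shares 466 of its 3874 exon bases with 1700020L24Rik on the opposite strand, and Mmp11 shares 155 of 2778 with Chchd10, in libraries that do not mark strand. 1700020L24Rik was at 0.174 FPKM or less, and Chchd10 was at 3.44 and 8.60 FPKM in Zeb1-CKO libraries and 8.44 and 3.97 FPKM in controls.

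Summed over their members, the 6 membrane-type genes gave 71.8 and 88.7 FPKM in Zeb1-CKO libraries, against 58.2 and 54.9 FPKM in controls. The 15 secreted genes gave 15.7 and 17.5 FPKM in Zeb1-CKO libraries, against 25.2 and 26.2 FPKM in controls. The ratio of the first sum to the second, taken within each library and so free of any scaling between libraries, was 4.59 and 5.07 in Zeb1-CKO cells, against 2.31 and 2.09 in controls. The sum of all 22 Mmp genes was 87.6 and 106 FPKM in Zeb1-CKO libraries and 84.3 and 81.2 FPKM in controls.

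**Figure D2:**
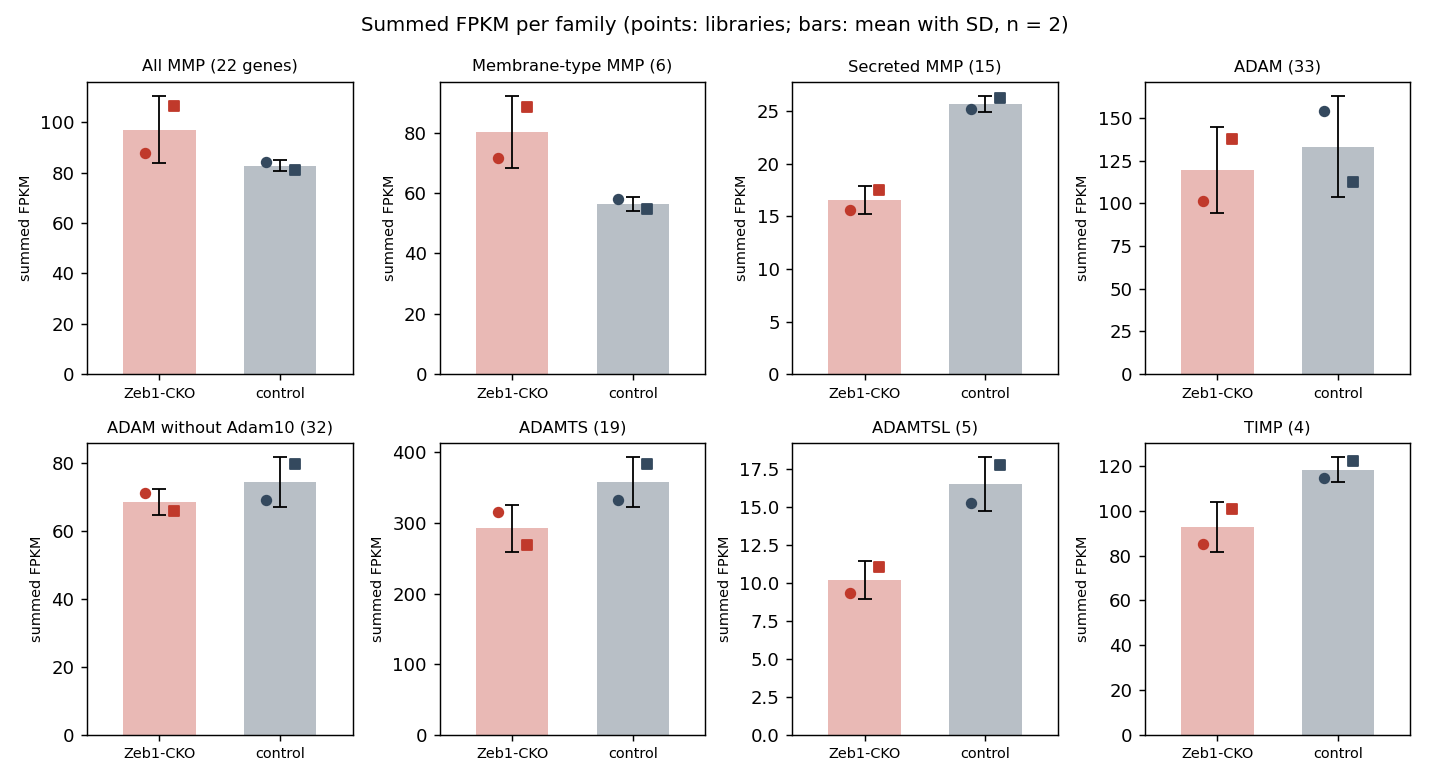
Summed FPKM per family, with each library as a point and bars for the mean with SD (n = 2), Zeb1-CKO left of control, every axis starting at 0. The membrane-type MMP sum was higher in both Zeb1-CKO libraries, the secreted MMP, ADAMTS, ADAMTSL and TIMP sums were lower in both, and the ADAM sums overlap.

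The other 16 Mmp genes had means below 1 FPKM. They include the classical collagenases, stromelysins and the macrophage elastase, 9 of which lie side by side on chromosome 9 from 7272514 to 7699585: Mmp13, Mmp12, Mmp1b, Mmp3, Mmp10, Mmp8, Mmp27, Mmp20 and Mmp7. The highest value of any of these 9 genes in any library was 0.913 FPKM, for Mmp8, a neutrophil collagenase, in Zeb1-CKO library 1. Mmp8 was listed at 0 in Zeb1-CKO library 2, and it was at 0.0937 FPKM in control library 1 and listed at 0 in control library 2. Mmp7 and Mmp27 were listed at 0 in all 4 libraries. Mmp9, the gene of gelatinase B, was at 0.136 and 0.0840 FPKM in Zeb1-CKO libraries and 0.129 and 0.127 FPKM in controls. For a transcript of 2000 bases, 1 step between low values was worth 0.0228 to 0.0446 FPKM over the 4 libraries, so values near 0.1 stand for few fragments. Outside the cluster, Mmp16 (0.470 to 0.716 FPKM), Mmp17 (0.232 to 0.591 FPKM) and Mmp19 (0.696 to 1.28 FPKM) reached 0.5 FPKM in at least 1 library, as did Mmp23 (0.115 to 0.972 FPKM). Mmp19 shares 789 of its 3533 exon bases with Tmem198b on the opposite strand, which was at 14.6 to 25.2 FPKM.

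The promoters were read for 2 motifs from RefSeq windows of 300 bases on GRCm38.p6, 250 before and 50 after each start. One is the zinc-finger E-box CAGGTG, with CAGGTA, to which ZEB1 is known to bind. The other is TGANTCA, where N is any base, a wider form of the AP-1 motif known from collagenase promoters. Windows were found for 52 of the 83 genes, and for 20 of the 29 tested. The Mmp15 and Timp2 windows are shown for their E-boxes, which are in capitals, and Mmp13 is shown for its AP-1 motif, in capitals. Mmp15 is on chr8:95352046-95352345 (plus strand), Timp2 on chr11:118355362-118355661 (minus strand) and Mmp13 on chr9:7272264-7272563 (plus strand), each written 5′ to 3′ on its own strand.
Mmp15: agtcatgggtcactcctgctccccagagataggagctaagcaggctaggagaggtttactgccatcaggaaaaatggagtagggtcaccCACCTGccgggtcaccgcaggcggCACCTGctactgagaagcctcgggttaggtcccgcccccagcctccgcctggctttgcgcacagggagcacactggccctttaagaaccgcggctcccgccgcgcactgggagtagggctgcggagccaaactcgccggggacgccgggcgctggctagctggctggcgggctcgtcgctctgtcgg
Timp2: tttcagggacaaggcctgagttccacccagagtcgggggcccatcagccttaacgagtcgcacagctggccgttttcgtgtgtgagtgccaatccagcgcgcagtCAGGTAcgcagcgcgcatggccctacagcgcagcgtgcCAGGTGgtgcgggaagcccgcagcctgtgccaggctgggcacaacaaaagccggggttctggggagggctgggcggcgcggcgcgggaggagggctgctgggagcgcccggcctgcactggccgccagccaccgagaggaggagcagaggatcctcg
Mmp13: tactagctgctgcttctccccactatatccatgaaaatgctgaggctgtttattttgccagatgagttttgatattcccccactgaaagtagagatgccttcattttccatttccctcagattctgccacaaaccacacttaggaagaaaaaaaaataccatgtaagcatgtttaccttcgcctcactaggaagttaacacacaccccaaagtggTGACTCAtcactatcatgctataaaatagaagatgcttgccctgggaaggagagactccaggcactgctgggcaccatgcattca

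The Mmp15 window holds CAGGTG at 2 places, read as CACCTG on the gene's own strand, with first bases at -161 and -137 from the start. Of all 32851 windows in the table, 2.88% hold CAGGTG at 2 or more places on either strand, and Mmp15 was the single such gene among the 20 tested genes with a window. Positions count from the RefSeq starts, which differ from those of the deposited table for Mmp15 and Timp2, and the Timp2 window does not reach the start in that table. The Timp2 window holds CAGGTA at -145 and CAGGTG at -107. CAGGTG or CAGGTA on either strand was found in windows of 6 of the 20 genes (Adam19, Adam22, Adamts17, Mmp15, Timp2 and Timp3), and in 29.5% of all windows. Mmp15 had higher values in Zeb1-CKO libraries and Timp2 lower ones. TGANTCA was found in 7 of the 9 genes of the chromosome 9 cluster (Mmp1b, Mmp3, Mmp7, Mmp10, Mmp12, Mmp13 and Mmp20), against 7.81% of all windows, and in none of the 5 tested Mmp genes with a window. CAGGTG and TGANTCA do not contain one another, and a match says only that these letters are present.

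Timp1 and Timp2 had lower values in Zeb1-CKO libraries, Timp3 overlapped and Timp4 was slightly higher, and none of the 4 passed the adjusted threshold. Timp3, the matrix-bound inhibitor that also blocks ADAM17 and the aggrecan-cutting ADAMTS enzymes, was the most abundant, at 59.1 and 70.6 FPKM in Zeb1-CKO libraries and 66.1 and 76.6 FPKM in controls. Its log2 fold change was -0.14 (95% interval -0.52 to 0.25). Timp1, the soluble inhibitor (chromosome X, 20870166 to 20874735), was at 15.3 and 19.6 FPKM in Zeb1-CKO libraries, against 32.4 and 28.9 FPKM in controls. Both Zeb1-CKO values were well below both controls, with a log2 fold change of -0.79 (SE 0.17) and limma's adjusted p at 0.0759. Timp2, which inhibits MMPs and also serves MT1-MMP as the adaptor for pro-MMP2, lies on chromosome 11 (118301069 to 118355740). It was at 8.84 and 7.81 FPKM in Zeb1-CKO libraries, against 14.4 and 15.3 FPKM in controls. The pairs were tight and apart, with a log2 fold change of -0.77 (SE 0.14) and limma's adjusted p at 0.0546, just over the threshold.

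Timp4 was the least abundant inhibitor, at 1.70 and 2.62 FPKM in Zeb1-CKO libraries and 1.43 and 1.49 FPKM in controls (limma's adjusted p = 0.471). Timp1, Timp3 and Timp4 each lie inside a synapsin gene on the opposite strand: Timp1 in Syn1, Timp3 in Syn3 and Timp4 in Syn2. Timp4 shares 90 of its 5894 exon bases with Syn2, which was at 2.34 and 3.69 FPKM in Zeb1-CKO libraries and 0.579 and 0.734 FPKM in controls. The part of Syn2 reads in the Timp4 values was not tested. Timp3 shares 1733 of 8144 exon bases with Syn3, which was at 0.775 FPKM or less in every library.

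Within each library, the ratio of Mmp14 to Timp2 was 4.30 and 5.92 in Zeb1-CKO cells, against 2.42 and 2.14 in controls. The summed Mmp genes stood to the summed Timp genes at 1.03 and 1.06 in Zeb1-CKO cells, against 0.737 and 0.664 in controls. Timp1 and Timp2 together were 0.408 and 0.388 of Timp3 in Zeb1-CKO cells, against 0.707 and 0.577 in controls. In each of these 3 ratios the genotypes did not overlap. The summed Adamts genes stood to Timp3 at 5.35 and 3.81 in Zeb1-CKO cells and 5.03 and 4.999 in controls, which overlapped. The ratios were formed after the values were seen and are given without a test.

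**Figure D3:**
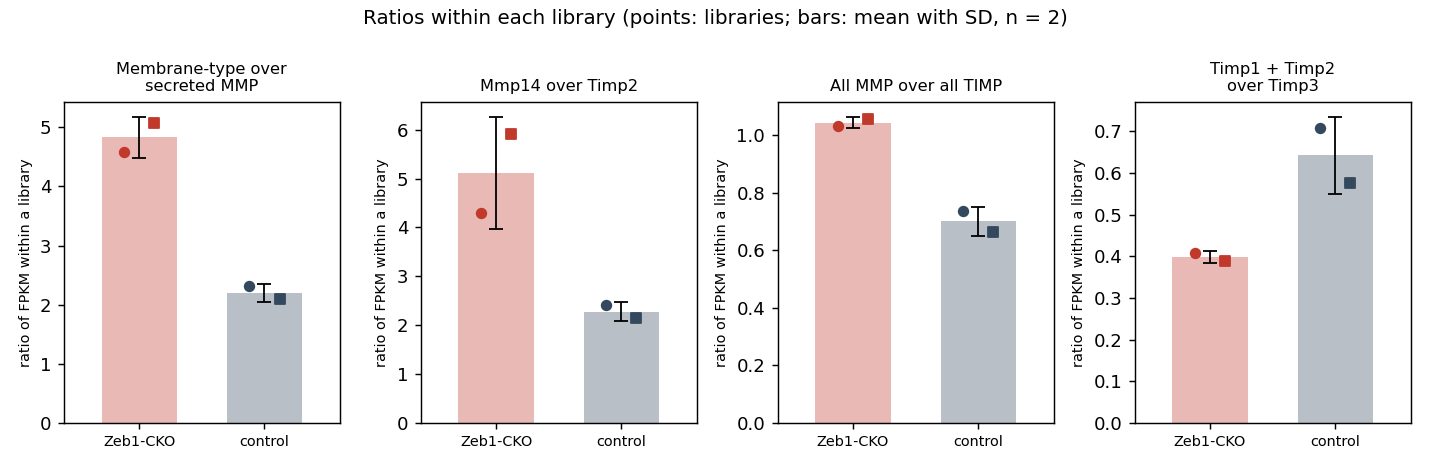
Ratios of FPKM within each library (points), with bars for the mean and SD (n = 2), Zeb1-CKO left of control, every axis starting at 0. The membrane-type over secreted MMP ratio was near 5 in Zeb1-CKO cells and near 2 in controls, and the ratio of Timp1 and Timp2 to Timp3 was lower in both Zeb1-CKO libraries.

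ADAM proteases shed membrane proteins. Of 33 Adam genes, 8 were tested, and their median log2 fold change was -0.12. None of the 8 had an unadjusted p under 0.05 in limma, where 17.9% of all tested genes did, so few would be reached among 8 genes at that share. Adam17, the gene of the main sheddase of TNF and of EGF-receptor ligands, was at 14.6 and 12.4 FPKM in Zeb1-CKO libraries and 12.5 and 13.5 FPKM in controls, with a 95% interval of -0.32 to 0.42 for its log2 fold change. Adam9 was at 14.4 and 15.9 FPKM in Zeb1-CKO libraries and 15.7 and 16.1 FPKM in controls, with an interval of -0.40 to 0.27. Adam15, which encodes a sheddase with an integrin-binding motif, was at 31.6 and 27.3 FPKM in Zeb1-CKO libraries and 29.9 and 38.1 FPKM in controls. The genotypes overlapped for all 3 genes. Adam15 shares 1263 of its 6145 exon bases with 4731419I09Rik on the opposite strand, which was at 2.08 to 2.47 FPKM.

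Adam10 encodes the sheddase that starts the cleavage of Notch receptors and cuts VE-cadherin. It was at 30.2 and 71.7 FPKM in Zeb1-CKO libraries and at 84.9 and 32.8 FPKM in controls. Each genotype thus held a high and a low library, and the within-genotype SD of 0.91 on the log2 scale was among the highest 0.901% of all tested genes. The 95% interval of its log2 fold change ran from -1.54 to 1.19, so a difference between genotypes was not detectable for this gene with these libraries. The ADAM sum followed it, at 102 and 138 FPKM in Zeb1-CKO libraries and 154 and 112 FPKM in controls, and without Adam10 the sum was 71.4 and 65.9 FPKM in Zeb1-CKO libraries and 69.3 and 79.7 FPKM in controls.

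The less abundant ADAMs were Adam19, Adam12, Adam11 and Adam22. Adam19, a sheddase of neuregulin, was at 4.93 and 4.22 FPKM in Zeb1-CKO libraries and 5.37 and 5.34 FPKM in controls. Adam12 was at 1.20 and 1.37 FPKM in Zeb1-CKO libraries and 2.00 and 1.53 FPKM in controls. Both genes had lower values in both Zeb1-CKO libraries, at limma's adjusted p of 0.573 and 0.543. Adam11 and Adam22 encode ADAMs without protease activity. Adam11 was at 1.15 and 1.94 FPKM in Zeb1-CKO libraries and 1.02 and 2.00 FPKM in controls. Adam22 was at 1.26 and 1.04 FPKM in Zeb1-CKO libraries and 1.04 and 0.975 FPKM in controls. Of the 25 Adam genes below the filter, most of them known from testis, 4 were listed at 0 in all libraries, 2 reached 0.5 FPKM in at least 1 library (Adam1a and Adam4) and 23 did not. Adam4 was at 0.726 and 0.799 FPKM in Zeb1-CKO libraries and 0.657 and 0.492 FPKM in controls. It lies inside Cox16 and Gm20498 on the same strand, which were at 1.58 to 5.57 FPKM.

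In the ADAMTS family, Adamts1 dominated and overlapped between genotypes. Among the tested genes, Adamts4, Adamts8, Adamts10, Adamts12 and Adamts17 had lower values in both Zeb1-CKO libraries. Adamts1, a versican- and aggrecan-cutting protease known to be made by endothelium, was the most abundant of the 83 genes and in the top 1.15% of all tested genes. It was at 219.5 and 186 FPKM in Zeb1-CKO libraries and 207 and 235 FPKM in controls, with a 95% interval of -0.50 to 0.25 for its log2 fold change. It made up 61.3% to 69.5% of the ADAMTS sum. Its neighbour on chromosome 16, Adamts5, was at 0.462 and 0.441 FPKM in Zeb1-CKO libraries and 0.429 and 0.778 FPKM in controls. Adamts9, another versican-cutting member, was at 19.96 and 16.2 FPKM in Zeb1-CKO libraries and 18.0 and 20.6 FPKM in controls. The genotypes overlapped for Adamts1, Adamts5 and Adamts9.

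Adamts4, which encodes aggrecanase 1 (chromosome 1, 171250421 to 171260637), was at 40.3 and 32.3 FPKM in Zeb1-CKO libraries, against 56.2 and 76.1 FPKM in controls. Both Zeb1-CKO libraries were below both controls, with a log2 fold change of -0.84 (SE 0.20) and limma's adjusted p at 0.0994. Adamts10, which encodes a fibrillin-binding member, was at 11.9 and 15.8 FPKM in Zeb1-CKO libraries, against 25.8 and 26.4 FPKM in controls. Its log2 fold change of -0.88 (SE 0.17, limma's adjusted p = 0.0607) was the most negative of the 29 with 1 FPKM added before the logarithm. With 0.1 FPKM added, Adamts10 was at -0.92 and Mmp28 at -0.97. Adamts8, known for inhibiting angiogenesis in assays of the human protein, was at 8.18 and 6.82 FPKM in Zeb1-CKO libraries and 11.6 and 13.8 FPKM in controls (log2 fold change -0.69, SE 0.16, limma's adjusted p = 0.101). Its neighbour on chromosome 9, Adamts15, was at 1.34 and 0.751 FPKM in Zeb1-CKO libraries and 0.984 and 0.815 FPKM in controls, which overlapped.

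Adamts12 was at 1.70 and 1.59 FPKM in Zeb1-CKO libraries, against 3.32 and 2.45 FPKM in controls (limma's adjusted p = 0.228), and Adamts17 was at 1.52 and 1.72 FPKM in Zeb1-CKO libraries, against 1.93 and 2.09 FPKM in controls (0.620). Adamts16 had the opposite sign but overlapped, at 7.73 and 3.46 FPKM in Zeb1-CKO libraries and 3.70 and 2.22 FPKM in controls. Adamts7 was at 1.72 and 2.17 FPKM in Zeb1-CKO libraries and 1.93 and 1.27 FPKM in controls. Without Adamts1, the ADAMTS sum was 96.4 and 83.1 FPKM in Zeb1-CKO libraries, against 126 and 148 FPKM in controls. Of the 10 Adamts genes below the filter, Adamts2 (0.452 to 0.771 FPKM), Adamts5, Adamts6 (0.536 to 0.929 FPKM) and Adamts15 reached 0.5 FPKM in at least 1 library.

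Adamtsl2 encodes a secreted protein known to bind fibrillin and the latent complex of TGF-beta (chromosome 2, 27079379 to 27108981), and it had the smallest p of the 29 tested genes. It was at 6.86 FPKM in both Zeb1-CKO libraries, against 11.7 and 13.9 FPKM in controls. The log2 fold change was -0.81 (SE 0.15, 95% interval -1.18 to -0.44), with limma's adjusted p at 0.0544. Adamtsl4 was at 1.76 and 2.999 FPKM in Zeb1-CKO libraries and 2.36 and 2.92 FPKM in controls, which overlapped. The other 3 Adamtsl genes were below the filter, and Adamtsl5 (0.331 to 0.963 FPKM) was the one among them to reach 0.5 FPKM.

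**Figure D4:**
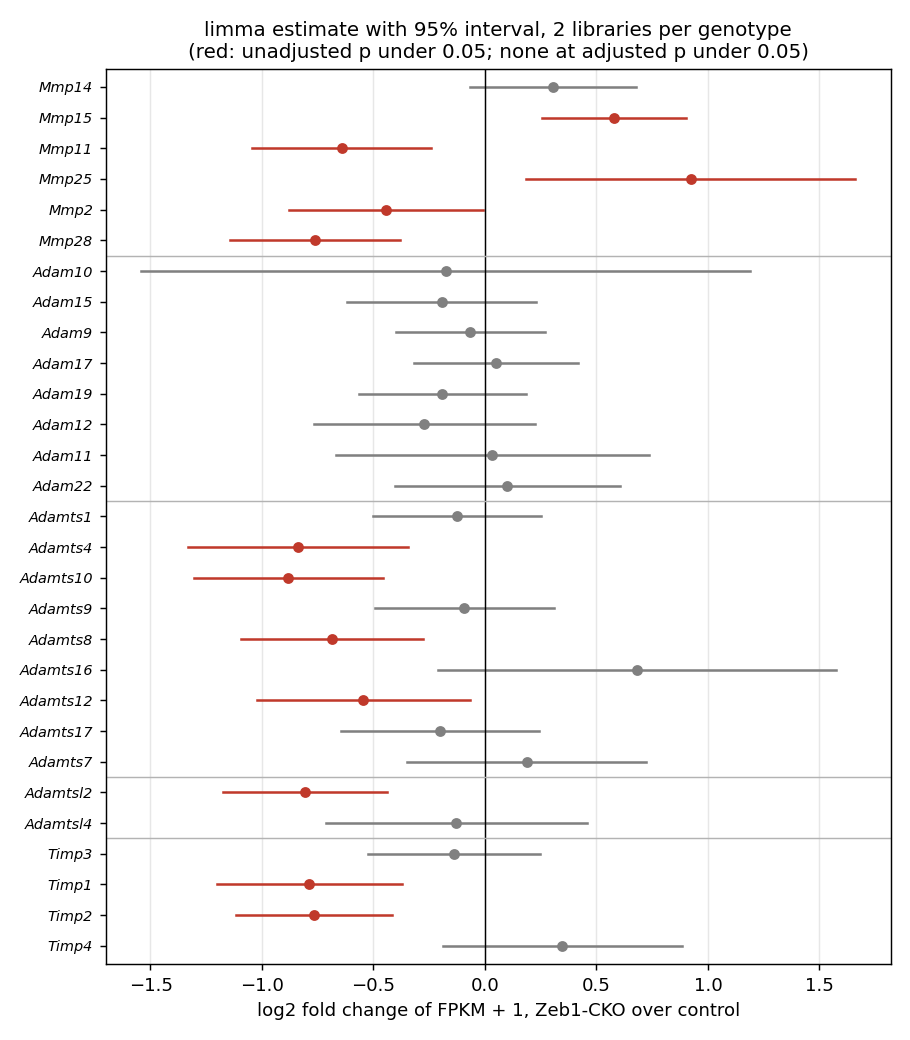
Log2 fold change of FPKM + 1, Zeb1-CKO over control, with limma's 95% interval, for the 29 tested genes by family; red marks an unadjusted p under 0.05. The 12 red genes are 10 below zero and 2 above it, Mmp15 and Mmp25, and the widest interval belongs to Adam10.

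Adjusted p between 0.05 and 0.1 was reached by 7 of the 29 genes, namely Mmp15 with higher values and Adamtsl2, Timp2, Adamts10, Mmp28, Timp1 and Adamts4 with lower ones in Zeb1-CKO libraries. At that looser threshold 4.05% of all tested genes were higher and 2.24% lower, 6.29% in all. Vessel-wall markers were lower beside the lower genes. The 10 pericyte markers summed to 1741 and 1941 FPKM in Zeb1-CKO libraries, against 2510 and 2042 FPKM in controls. All 10 had a negative log2 fold change, with a median of -0.35, none passed the adjusted threshold and none was at 0 in any library. After Rgs5 the most abundant was Higd1b, at 108 and 186 FPKM in Zeb1-CKO libraries and 204 and 151 FPKM in controls. The 7 smooth-muscle markers summed to 255 and 334 FPKM in Zeb1-CKO libraries, against 573 and 431 FPKM in controls. Of the 6 tested, all had a negative log2 fold change, with a median of -0.78. The most abundant were Myl9, at 173 and 232 FPKM in Zeb1-CKO libraries and 391 and 283 FPKM in controls, and Acta2, at 46.8 and 65.7 FPKM in Zeb1-CKO libraries and 126 and 92.7 FPKM in controls. Tagln passed, at a log2 fold change of -0.85, and its call ended when any 1 library was left out (-0.93 to -0.78). Such a fit has 1 library in a genotype, assumed to vary like the pair in the other, so a call can end through lost power. Their part in the lower values was not tested, and in pooled cells fewer cells of a type and less RNA per cell cannot be told apart. Myeloid markers, which bear on Mmp25 and Mmp8, summed to 110 and 95.5 FPKM in Zeb1-CKO libraries, against 69.4 and 137 FPKM in controls. Of the 8 tested of these 12 markers, 7 had a negative log2 fold change, Aif1 was listed at 0 in at least 1 library, and their part was not tested. Fibroblast markers summed to 55.0 and 57.5 FPKM in Zeb1-CKO libraries and 52.4 and 59.5 FPKM in controls, but they moved in opposite directions. Of the 4 tested, 2 had a log2 fold change above 0 and 2 below. Pdgfra, also counted with the glia markers, was at 37.8 and 37.6 FPKM in Zeb1-CKO libraries, against 25.8 and 22.9 FPKM in controls. Col3a1 was at 12.7 and 13.7 FPKM in Zeb1-CKO libraries, against 19.3 and 26.4 FPKM in controls. Col1a2 was at 2.75 and 3.29 FPKM, against 6.00 and 7.74 FPKM. The part of fibroblasts was not tested. Müller glia and astrocyte markers summed to 471 and 524 FPKM in Zeb1-CKO libraries and 409 and 437 FPKM in controls. Of the 9 tested of these 10 markers, 7 had a log2 fold change above 0 and 2 below, with a median of 0.37, and none passed. The part of glia in the genes with higher values was not tested. Photoreceptor markers summed to 50.9 and 58.0 FPKM in Zeb1-CKO libraries and 96.5 and 10.9 FPKM in controls, so the controls lay farthest apart. Inner retinal neuron and pigment epithelium markers summed to at most 27.6 and 3.72 FPKM in any library.

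Upstream of these enzymes, genes of pro-protein cleavage and of the plasminogen system included 3 that rose and 1 that fell among 11 tested of 15, where 2.23% of all tested genes rose and 0.901% fell. Hpn and St14, which encode the membrane-anchored serine proteases hepsin and matriptase, rose from low levels. Both were below 1 FPKM in each control and passed the filter through their high Zeb1-CKO values. Their place among the tested genes thus already depended on those values. Hpn was at 13.5 and 12.1 FPKM in Zeb1-CKO libraries, against 0.848 and 0.616 FPKM in controls, with limma's adjusted p at 0.00171. St14 was at 3.27 and 2.84 FPKM in Zeb1-CKO libraries, against 0.516 and 0.465 FPKM in controls (limma's adjusted p = 0.0224). Pcsk6, a furin-type convertase gene, rose to 6.65 and 7.18 FPKM in Zeb1-CKO libraries, against 2.75 and 3.52 FPKM in controls (limma's adjusted p = 0.0494). Serpine2, the gene of protease nexin-1, an inhibitor of plasmin and thrombin, fell to 54.7 and 55.2 FPKM in Zeb1-CKO libraries, against 109 and 91.1 FPKM in controls (limma's adjusted p = 0.0439). The call of Hpn was kept without any 1 library, while those of St14, Pcsk6 and Serpine2 each ended when any 1 of the 4 libraries was left out. Those fits gave log2 fold changes of 1.37 to 1.52, 0.81 to 1.08 and -0.97 to -0.72. Plat, the gene of tissue plasminogen activator and the most abundant of the list, was at 222 and 235 FPKM in Zeb1-CKO libraries and 142 and 151 FPKM in controls, with limma's adjusted p at 0.0652.

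Of 8 tested of 12 other genes that inhibit or induce metalloproteinases, none rose and 1 fell, beside 2.23% and 0.901% of all tested genes. Spock2, which encodes the proteoglycan testican-2, fell to 83.4 and 97.4 FPKM in Zeb1-CKO libraries, against 211 and 221 FPKM in controls (limma's adjusted p = 0.0150). Its call ended without Zeb1-CKO library 1 or 2, at log2 fold changes of -1.36 to -1.14 over the 4 fits that leave out a library. Bsg, the gene of basigin, known as an inducer of MMPs, was at 856 and 967 FPKM in Zeb1-CKO libraries and 1817 and 1556 FPKM in controls, with limma's adjusted p at 0.0510. Cst3, the gene of cystatin C and the next in abundance, overlapped, at 852 and 1608 FPKM in Zeb1-CKO libraries and 1309 and 1258 FPKM in controls. Reck, a membrane-anchored MMP inhibitor, was at 3.16 and 3.83 FPKM in Zeb1-CKO libraries and 6.16 and 5.95 FPKM in controls, and did not pass. The list's median log2 fold change was -0.61, beside 0.02 for all tested genes.

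No gene passed among 9 tested of 11 regulators of ADAM10 and ADAM17, where 2 were higher and 2 lower at an unadjusted p under 0.05, beside 10.5% and 7.35% of all tested genes. The most abundant, Tspan14, one of the tetraspanins that carry ADAM10 to the cell surface, was at 84.4 and 96.5 FPKM in Zeb1-CKO libraries and 58.6 and 63.5 FPKM in controls (limma's adjusted p = 0.109). Pdia6, a protein disulfide isomerase gene, was at 78.7 and 72.7 FPKM in Zeb1-CKO libraries and 58.3 and 54.9 FPKM in controls (limma's adjusted p = 0.179). The other tetraspanins of the list differed in direction and are named after their values were seen. Tspan15 overlapped, at 14.95 and 24.28 FPKM in Zeb1-CKO libraries and 15.47 and 14.02 FPKM in controls (log2 fold change 0.35). Below the filter, Tspan33 was higher, at 0.772 and 0.459 FPKM in Zeb1-CKO libraries and 0.363 and 0.0695 FPKM in controls, and Tspan10 overlapped. Tspan17 and Tspan5 had lower values in both Zeb1-CKO libraries. Tspan17 was at 14.3 and 16.4 FPKM in Zeb1-CKO libraries and 24.5 and 25.4 FPKM in controls (limma's adjusted p = 0.0738). Tspan5 was at 13.1 and 5.63 FPKM in Zeb1-CKO libraries and 20.9 and 20.5 FPKM in controls (limma's adjusted p = 0.161). Among 31 tested of 33 membrane proteins known to be shed by ADAM10 or ADAM17, 2 rose and 1 fell, beside 2.23% and 0.901% of all tested genes. Procr, the endothelial protein C receptor gene, rose to 50.2 and 51.3 FPKM in Zeb1-CKO libraries, against 4.95 and 5.58 FPKM in controls (limma's adjusted p = 0.000974), and this call was kept without any 1 library. Cxcl16, a membrane-bound chemokine gene, rose to 7.11 and 5.72 FPKM in Zeb1-CKO libraries, against 1.08 and 1.33 FPKM in controls (limma's adjusted p = 0.0114), a call that ended without Zeb1-CKO library 1 or 2 (log2 fold change 1.61 to 1.88 over the 4 fits, and 1.74 with all libraries). Icam1, which encodes a leukocyte adhesion molecule, fell to 94.9 and 96.3 FPKM in Zeb1-CKO libraries, against 191 and 183 FPKM in controls (limma's adjusted p = 0.0216), a call that ended when any 1 library was left out (log2 fold change -0.99 to -0.93). The most abundant genes of the list did not pass. Tie1, an endothelial receptor tyrosine kinase gene, was at 165 and 175 FPKM in Zeb1-CKO libraries and 135 and 163 FPKM in controls, and F11r, which encodes the junction protein JAM-A, was at 181 and 223 FPKM in Zeb1-CKO libraries and 123 and 108 FPKM in controls (limma's adjusted p = 0.0679). The list's median log2 fold change was -0.16.

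Among 22 tested of 26 matrix proteins cut by ADAMTS enzymes or MMPs, none rose and 2 fell, beside 2.23% and 0.901% of all tested genes. Bgn, which encodes the small proteoglycan biglycan, fell to 58.1 and 57.2 FPKM in Zeb1-CKO libraries, against 107 and 97.9 FPKM in controls (limma's adjusted p = 0.0359). Hapln3, which encodes a link protein of hyaluronan and proteoglycans, fell to 2.53 and 2.38 FPKM in Zeb1-CKO libraries, against 5.87 and 6.10 FPKM in controls (limma's adjusted p = 0.0300). Both calls were lost when any 1 library was left out, with values of -0.88 to -0.75 for Bgn and -1.05 to -0.99 for Hapln3 on the log2 scale. The most abundant, Sparc, which encodes a collagen-binding matrix protein, was at 1177 and 1242 FPKM in Zeb1-CKO libraries and 1411 and 1477 FPKM in controls (limma's adjusted p = 0.403). Col4a1, a basement membrane collagen gene, overlapped, at 335 and 317 FPKM in Zeb1-CKO libraries and 307 and 393 FPKM in controls. The list's median log2 fold change was -0.05.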

How the data were processed

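RNA was sequenced from 4 libraries, each of 100 sorted cells. Per the labels' protocols, cDNA was made with the SMART-Seq v4 kit and libraries with a NuGEN Ovation kit, which do not mark strand. The submitters' processing notes list Trimmomatic 0.36, HISAT2 2.1.0, StringTie 1.3.3 and build mm10 with no settings. FPKM were made by the authors and deposited for each gene; the unit was read from the values and tools. FPKM are not counts, so no count test was run.

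Genotype was the only term in limma 3.58.1 (R 4.3.3; trended prior variance), fitted to log2(FPKM + 1) of the 13651 genes averaging 1 FPKM or more. A call needed a Benjamini-Hochberg adjusted p under 0.05, and the script was tested on simulated data. Family sums and ratios have no test. Every gene of the families at that mean is named, those below it where a library reached 0.5 FPKM, and from each other list the called genes and the 2 most abundant. Mmp7, Mmp9, Mmp27, Reck, Col1a2, Tspan5, Tspan10, Tspan15, Tspan17, Tspan33 and the cluster on chromosome 9 were named after their values were seen. The families and lists were chosen with earlier results of these data known.

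Depth was estimated from genes with 1 transcript over 600 bases, whose FPKM times length (under 400) lay within 0.02 of a whole step for 20.2% to 27.5% of values, against 4% at random. Amplified reads carry no molecular identifiers, so depth overstates the molecules. Gene spans and exon overlaps are from GENCODE M21 (mm10) for versioned identifiers that matched, 53229 of 54446, which leaves out Adamts10. Transcripts of tested genes were compared with BLAST 2.17.0; no other gene in the table above 0.0565 FPKM was at least 95% identical over at least 80%. Some exon overlaps of tested genes are not reported here.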

Additional observations from a re-analysis of the deposited data

How the results depend on the processing

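Of the 12 genes of these families with an unadjusted p under 0.05, none changed direction under any alternative. The number that passed with lower values was 0, but 1 (Timp2) with a mean of at least 5 FPKM, 2 (Adamts10 and Adamtsl2) with median-of-ratios scaling, and 3 (Adamts10, Adamtsl2 and Timp1) with quantile normalization, at adjusted p of 0.0435 to 0.0498. In that order, 88 of 7242, 157 of 13651 and 163 of 13651 tested genes passed with lower values, against 123 of 13651 in the main fit. The median log2 fold change of all tested genes was -0.004 with median-of-ratios scaling and -0.019 with quantile normalization, against 0.02 in the main fit. At an adjusted p under 0.1, 6 genes of these families were lower and 1 was higher, beside 2.24% and 4.05% of all tested genes. No gene of these families passed without any 1 library. Over all genes, 304 were higher and 123 lower. These counts were 70 and 15 with no filter, 169 higher with a mean of at least 5 FPKM, 553 and 306 at an adjusted p under 0.1, and 44 to 224 and 15 to 59 without any 1 library.

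With the replicate number as a block, 155 genes were higher and 38 lower, and none of these families passed. The labels name no animal or day shared by same-numbered libraries, and the correlation of their deviations was -0.12. With 2 libraries per genotype, that value cannot show whether they were prepared together.

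The log2 ratio of the MMP sum, 0.23, ranged from 0.081 to 0.36 without any 1 library, lowest without Zeb1-CKO library 2. That of the ADAM sum, -0.16, was -0.39 to 0.09 there. Without its most abundant gene, the ratio was -0.61 for ADAMTS (-0.29 with it), -0.16 for ADAMTSL (-0.70) and -0.75 for TIMP (-0.35). Genes below 1 FPKM are limited by depth, most of all in control library 2.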

Other observations

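Other extracellular metalloproteases and carboxypeptidases were measured with a list of 18 genes, of which 9 were tested, 1 rose and none fell, beside 2.23% and 0.901% of all tested genes. Cpe, which encodes carboxypeptidase E, a zinc enzyme of peptide hormone processing, rose to 258 and 271 FPKM in Zeb1-CKO libraries, against 142 and 134 FPKM in controls, with a log2 fold change of 0.93 (SE 0.13) and limma's adjusted p at 0.0242. The call ended without any 1 library, with log2 fold changes of 0.89 to 0.98. Ece1, the gene of endothelin-converting enzyme 1, was at 130.3 and 131.5 FPKM in Zeb1-CKO libraries and 100.3 and 110.4 FPKM in controls, and did not pass (limma's adjusted p = 0.288).

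Some low genes of the families were above the rest in a single library. Mmp23 was at 0.137 and 0.265 FPKM in Zeb1-CKO libraries and at 0.972 and 0.115 FPKM in controls. Adam1a was at 0.195 and 0.151 FPKM in Zeb1-CKO libraries and at 0.141 and 0.882 FPKM in controls. Adam1a shares 4779 of its 7508 exon bases with Gm42878 and 1805 with Mapkapk5, both on the same strand. Mapkapk5 was at 2.44 and 4.77 FPKM in Zeb1-CKO libraries and 3.98 and 1.97 FPKM in controls. The part of such shared reads in the Adam1a values was not tested.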
